A study of Mus musculus with 52 samples.

Results

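The alkylating hepatocarcinogens ethylnitrosourea (ENU), dimethylnitrosamine (DMN) and dipropylnitrosamine (DPN) were followed through the first day after dosing in mouse liver. The arrays were chosen by their titles, as those of ENU, DMN and DPN at 4 h and 20 h with the saline control array that carries the same chemical's name and time, which gave 12 of the 52 arrays of the series. They fall into 4 groups of 3: treated at 4 h, control at 4 h, treated at 20 h and control at 20 h. All were livers of male B6C3F1 mice. The doses were 150 mg/kg of ENU, 5 mg/kg of DMN and 250 mg/kg of DPN, and the controls received saline. The study's methods give an age of 9 weeks and 1 injection into the peritoneum, and the labels state that doses of genotoxic agents were those with a positive result in a mutation assay with transgenic mice. The question was what the agents share at 4 h, what they share at 20 h, and what differs between those times. Each array held RNA pooled from 5 mice, so that the replicates of a group are different chemicals, and the spread between single mice is not seen. Because the doses differ between the agents, their values are set side by side below and were not compared by a test.

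ENU is a direct alkylating agent that reacts with DNA without being metabolised. DMN and DPN are nitrosamines, which cytochrome P450 enzymes of the hepatocyte must first oxidise to give alkylating species. Alkylated bases that block replication or transcription lead to stabilisation of the transcription factor p53, which induces genes that arrest the cell cycle, such as Cdkn1a, genes that limit p53 itself, such as Mdm2, and genes of cell death. The liver is also the main site of cholesterol and fatty acid synthesis, whose genes are under the control of the SREBP transcription factors and follow feeding and insulin.

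Values are log2 of the probe-set signal after each array was scaled to a common median. Signals under 32.5, which is 5.02 on the log2 scale, were raised to that floor, so that a ratio against a control at the floor is a lower bound. A fold change is the mean of the 3 log2 ratios of a treated array to its own control, with the standard error (SE) of a limma fit in which each pair was a block (n = 3 pairs a time), and calls were made where the p adjusted by Benjamini-Hochberg was under 0.05. The medians of the 12 arrays before scaling ran from 61 to 89.9. In each of the 3 pairs at 20 h the treated array was the brighter one (82.7 to 89.9 against 67.5 to 71.8). The log2 ratio of the 3′ to the 5′ beta-actin probe sets, a sign of RNA integrity, was lower in the treated array than in its control in 6 of 6 pairs (0.54 to 0.86 against 0.67 to 1.28), and its part in the results was not tested. Hepatocyte markers, of which 9 of 12 were tested, summed to a signal of 81300 to 106000 in the 12 arrays.

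At 4 h, 33 of 17019 tested probe sets were called, 32 higher in the treated arrays (0.188% of those tested) and 1 lower (0.00588%). They covered 25 genes, and 5 of the probe sets had no single gene symbol. At 20 h, 70 probe sets were called, 46 higher (0.27%) and 24 lower (0.141%), for 57 genes. All of these had the same sign in the 3 agents at that time. At an unadjusted p under 0.05 there were 2552 probe sets at 4 h and 2228 at 20 h. The number of calls moved with the agents included, the scaling, the filter and the way the variance was estimated. Without ENU or without DPN no probe set was called at either time, and without DMN 0 were called at 4 h and 4 at 20 h. With no trend of the variance on signal, or with each time fitted alone, 0 were called at both times, and the same held with no filter on low signals. With quantile normalization 0 were called at 4 h and 52 at 20 h, and with the floor at the 15th percentile 3 and 31. In the values as deposited, without scaling, the median log2 ratio of all probe sets at 20 h was 0.30, and 613 probe sets were called higher and 23 lower at 20 h. A separate count without a test gave 19 probe sets at least 2-fold higher in all 3 agents at 4 h (0.112%) and 21 at 20 h (0.123%), of which 8 were the same, against 1 (0.00588%) and 5 (0.0294%) at least 2-fold lower.

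Most genes called at both times were p53 targets. The probe sets called at 4 h and at 20 h numbered 10, which was 30.3% of the 4 h calls and 14.3% of the 20 h calls. They belonged to 7 genes, all higher in the treated arrays: Cdkn1a, Ccng1, Mdm2, Aen, Trp53inp1, Tpm1 and Nfe2l2. Because an upstream sequence helps to see what p53 targets have in common, stretches upstream of the RefSeq start are shown for 3 of them, with the letters that matched the p53 consensus in capitals and all sequences given 5′ to 3′ on the gene's strand. For Cdkn1a (GRCm38.p6, chr17:29090866-29090977, plus strand) the capitals mark 2 exact matches to the p53 decamer and the spacer between them, 73 to 42 bases before the start. The 10 bases after these capitals miss the consensus by 1 letter and so stay in lower case. The capitals thus need not be the element that p53 binds. For Ccng1 (chr11:40755422-40755511, minus strand) and Mdm2 (chr10:117710895-117710984, minus strand) the capitals mark 1 decamer, 185 to 176 and 186 to 177 bases before the start.
Cdkn1a: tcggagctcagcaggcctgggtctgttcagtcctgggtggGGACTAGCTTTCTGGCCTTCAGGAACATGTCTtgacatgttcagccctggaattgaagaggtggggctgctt
Ccng1: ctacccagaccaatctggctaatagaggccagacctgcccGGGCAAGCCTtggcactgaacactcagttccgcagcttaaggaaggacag
Mdm2: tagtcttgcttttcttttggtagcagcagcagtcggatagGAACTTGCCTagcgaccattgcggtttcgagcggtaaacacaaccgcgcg

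The window searched was the 250 bases before the start, on both strands, and the motif was the exact consensus of the p53 decamer. A decamer was present in 7.13% of all 32851 windows, and a pair of decamers with a spacer of at most 13 bases in 0.0639%. Of the 7 genes called at both times, 6 had a window, and a decamer was found for 5 of them (Aen, Ccng1, Cdkn1a, Mdm2 and Tpm1), the pair for Cdkn1a alone. The motif was not particular to genes that rose. It was present for 10 of 32 genes with a window that were called higher at 20 h and for 5 of 16 called lower (Lsm7, Nsdhl, Pklr, Reln and Sc5d). A match of letters is a description and does not show binding.

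Cdkn1a, which encodes the cyclin-dependent kinase inhibitor p21, had the largest fold change of the called probe sets at both times. At 4 h its log2 signal was 5.95, 7.75 and 6.34 in the controls of ENU, DMN and DPN and 9.64, 9.77 and 10.72 in the treated arrays. At 20 h it was 5.02, 5.98 and 5.02 in the controls and 8.65, 10.68 and 10.69 in the treated arrays. The groups did not overlap at either time, and 2 of the 3 controls lay at the floor at 20 h. The log2 fold change was 3.36 ± 0.44 (SE) at 4 h (limma adjusted p = 0.0356) and 4.66 ± 0.44 at 20 h (adjusted p = 0.00672), a 10.3-fold rise and a rise of at least 25.4-fold. DMN had the smallest log2 ratio at 4 h (2.02) and ENU the smallest at 20 h (3.63). A dimmer probe set of Cdkn1a gave 1.33 at 4 h, with 2 of the 3 controls at the floor, and did not pass (limma adjusted p = 0.142). It was not called at 20 h either.

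Ccng1, the p53 target that encodes cyclin G1, was called at both times by all 3 of its probe sets. The brightest one read 7.99, 8.67 and 8.14 in the 4 h controls of ENU, DMN and DPN and 9.26, 9.88 and 9.88 in the treated arrays. At 20 h it read 8.33, 7.99 and 8.10 in the controls and 10.09, 10.51 and 10.92 in the treated arrays. No treated array overlapped a control. Its mean log2 ratio was 1.41 ± 0.19 at 4 h (limma adjusted p = 0.0356) and 2.37 ± 0.19 at 20 h (adjusted p = 0.00441). The other probe sets gave 2.50 and 1.99 at 4 h, and 2.91 and 2.56 at 20 h.

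Mdm2, the ubiquitin ligase that degrades p53, had a probe set at 7.11, 7.12 and 6.83 in the 4 h controls of ENU, DMN and DPN, and the treated arrays stood 1.23, 1.79 and 2.18 above them. At 20 h the controls were at 7.08, 7.02 and 6.76 and the treated arrays 1.12, 1.98 and 1.70 above them, without overlap of the groups at either time. Its log2 fold changes were 1.73 ± 0.21 and 1.60 ± 0.21 (limma adjusted p = 0.0356 and 0.0196). The brightest probe set of Mdm2 gave 0.88 ± 0.21 at 4 h, which did not pass (adjusted p = 0.131), and 1.30 ± 0.21 at 20 h, which did (adjusted p = 0.0461).

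Trp53inp1, which encodes a stress-induced nuclear protein that promotes p53 activity and autophagy, rose at both times, with a difference between the times of -0.01. Its log2 signal was 8.42, 8.64 and 9.08 in the 4 h controls and 10.56, 10.22 and 10.89 in the treated arrays of ENU, DMN and DPN. At 20 h it was 8.40, 8.64 and 8.29 in the controls and 9.78, 10.37 and 10.68 in the treated arrays. Its log2 fold change was 1.84 ± 0.18 at 4 h and 1.83 ± 0.18 at 20 h (limma adjusted p = 0.0282 and 0.00700). A dimmer probe set of Trp53inp1 gave 1.42 at 4 h, which did not pass (adjusted p = 0.09), and was not called at 20 h.

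Aen, a p53-induced nuclease of apoptosis, was at 7.66, 8.06 and 7.24 in the 4 h controls and at 8.95, 8.81 and 8.98 in the treated arrays of ENU, DMN and DPN. At 20 h the controls were at 7.46, 7.54 and 7.36 and the treated arrays at 8.79, 8.99 and 9.01. The 6 treated arrays lay within a narrow band above every control, with log2 fold changes of 1.26 ± 0.18 and 1.48 ± 0.18 (limma adjusted p = 0.0397 and 0.0132). A dimmer probe set of Aen was called as well, at 1.75 and 2.15.

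Nfe2l2 encodes NRF2, the transcription factor of the antioxidant response. It was at 8.99, 8.87 and 8.99 in the 4 h controls of ENU, DMN and DPN and at 9.53, 9.68 and 9.78 in the treated arrays. At 20 h it was at 9.11, 8.62 and 9.07 in the controls and at 9.98, 9.75 and 9.90 in the treated arrays. Its change was small and even among the agents, with log2 fold changes of 0.71 ± 0.11 and 0.94 ± 0.11 (limma adjusted p = 0.0477 and 0.0103). Tpm1, which encodes a tropomyosin of the actin cytoskeleton, was called by a dim probe set (log2 fold changes 1.24 and 1.51) with 1 control at the floor at 4 h and 2 at 20 h. Its brightest probe set was not called (0.32 and 0.50).

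**Figure D1:**
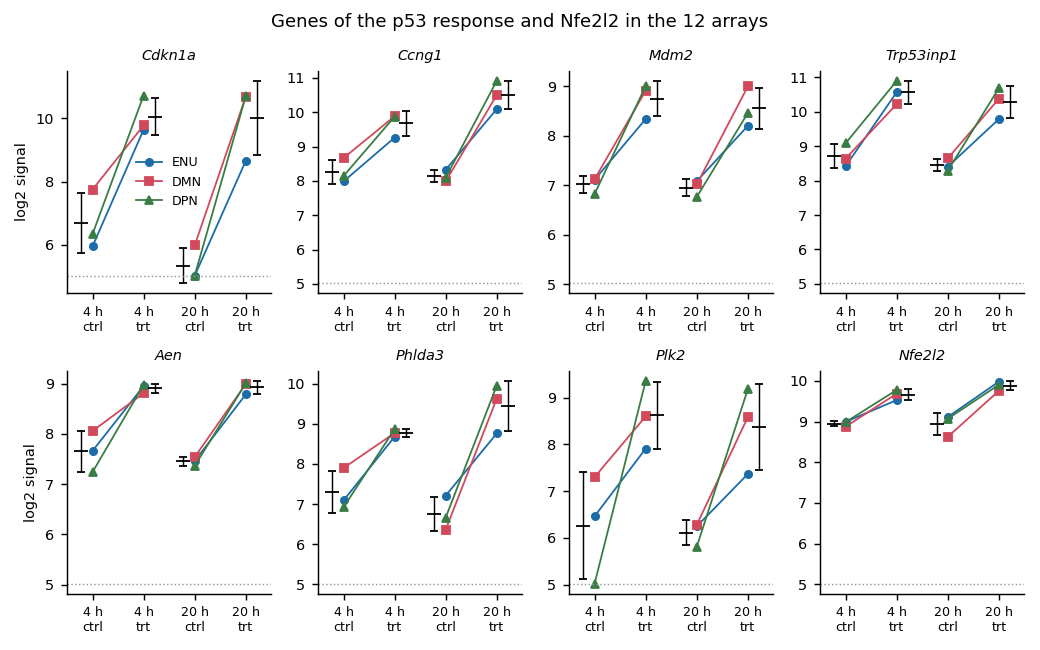
Log2 signal of 8 genes in the 12 arrays: each line joins a saline control (ctrl) to the treated array (trt) of the same chemical and time, black bars are the mean ± SD of the 3 arrays of a group, and the dotted line is the floor at 5.02. Mdm2 is shown by the probe set called at both times and the other genes by their brightest one; Cdkn1a rose by 3.36 at 4 h and 4.66 at 20 h on the log2 scale, and the 3 lines rise in every panel at both times.

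Further p53 targets were called at 20 h. Phlda3, an inhibitor of AKT signalling, was at 7.21, 6.36 and 6.66 in the 20 h controls of ENU, DMN and DPN and at 8.76, 9.63 and 9.95 in the treated arrays, a log2 fold change of 2.70 ± 0.33 (limma adjusted p = 0.0132). At 4 h its log2 fold change was 1.47 ± 0.33 and did not pass (adjusted p = 0.112), although the arrays did not overlap. Psrc1, a spindle-associated protein, rose by 1.67 ± 0.27 (limma adjusted p = 0.0461) with 2 of 3 controls at the floor. Ei24, an endoplasmic reticulum protein of p53-induced death, rose by 0.71 ± 0.10 (adjusted p = 0.0318). Rps27l, a ribosomal protein-like regulator of p53, rose by 0.64 ± 0.08 by its called probe set (adjusted p = 0.0196).

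Other targets had large mean changes and did not pass. Plk2, a polo-like kinase of the stress response, was at 6.46, 7.30 and 5.02 in the 4 h controls and at 7.91, 8.60 and 9.36 in the treated arrays. Its log2 ratios were 1.45, 1.30 and 4.33, the last (DPN) against a control at the floor, and the mean of 2.36 ± 0.57 did not pass (limma adjusted p = 0.134). The mean at 20 h was 2.26 ± 0.57 (adjusted p = 0.143). Btg2, an antiproliferative gene, had log2 fold changes of 1.31 ± 0.32 and 1.15 ± 0.32 (adjusted p = 0.135 and 0.174), and Ddit4, an inhibitor of mTORC1, of 1.56 ± 0.25 and 1.14 ± 0.25 (adjusted p = 0.0634 and 0.104). Fas, the death receptor, was lower in each pair at 4 h and higher in each pair at 20 h, with log2 fold changes of -1.19 ± 0.28 and 0.67 ± 0.28, neither of which passed (adjusted p = 0.13 and 0.354). The difference between those times, 1.87 ± 0.40, did not pass either (adjusted p = 0.275).

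Of the 22 p53 targets listed for arrest and feedback, 20 were tested. By the brightest probe set of each gene, 16 were higher at 4 h, 3 of them called (Cdkn1a, Ccng1 and Trp53inp1), and 16 at 20 h, 6 of them called (these 3 with Mdm2, Psrc1 and Ei24). None was called lower. Over all 10137 genes the calls by the brightest probe set were 20 higher (0.197%) and 0 lower (0.0%) at 4 h, and 29 higher (0.286%) and 20 lower (0.197%) at 20 h. The median log2 fold change of the list was 0.47 at 4 h and 0.74 at 20 h, beside 0.03 and 0.02 over all genes. Of all genes, 55.5% were above 0 at 4 h and 53.1% at 20 h. These shares stand beside the counts of higher members here and below. Of the 18 targets listed for cell death, 14 were tested, 10 were higher at 4 h with 1 called (Aen) and 13 at 20 h with 2 called (Aen and Phlda3), with medians of 0.22 and 0.62. Members that were not called ranged widely. Cgref1, a growth regulator, was at the floor in all 3 controls at 20 h and at 7.22, 6.63 and 6.65 in the treated arrays of ENU, DMN and DPN, yet its mean log2 ratio of 1.81 ± 0.44 did not pass (limma adjusted p = 0.129), and at 4 h it was at -0.44. Zmat3, an RNA-binding zinc finger protein, was higher in each pair, by 0.67 at 4 h and 1.16 at 20 h (adjusted p = 0.234 and 0.0763). Plk3, a polo-like kinase, was at 1.45 at 4 h and 0.43 at 20 h (adjusted p = 0.103 and 0.615), and Ddit4l, a relative of Ddit4, at 1.02 and 0.92 (adjusted p = 0.275 and 0.359). Apaf1 of the apoptosome and the death effector Bid had log2 fold changes of 0.84 and 0.80 at 20 h (adjusted p = 0.159 and 0.16), with each pair higher. Mdm4, a p53 inhibitor, was at -0.15 and -0.63 and did not pass. Bbc3, the gene of the death effector PUMA, was near its controls at 0.05 and -0.06, and so was Sesn1, a sestrin, at 0.02 and -0.14.

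No gene of DNA repair or replication was called. Of 38 listed for repair and the damage checkpoint, 31 were tested, and 13 were higher at 4 h and 18 at 20 h, with medians of -0.05 and 0.01. Of all genes, 55.5% and 53.1% were higher at these times. Mgmt, whose protein removes alkyl groups from guanine, had log2 fold changes of 0.09 and 0.19, and Mpg, the alkyladenine glycosylase, of -0.26 and 0.24. For replication and mitosis, 20 of 28 were tested with medians of 0.02 and 0.00. Pcna, the sliding clamp of DNA polymerase, was at 0.76 at 4 h, the largest of that list, and did not pass.

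Other genes were called at 4 h and not at 20 h, with 20 h values that differed among them. Rcan1, an inhibitor of calcineurin, was at 6.47, 6.82 and 7.74 in the 4 h controls of ENU, DMN and DPN and at 8.16, 8.81 and 9.48 in the treated arrays. At 20 h the controls were at 7.48, 7.06 and 7.43 and the treated arrays at 7.28, 8.23 and 7.33. With DMN it was thus still higher at 20 h, by 1.17. Its log2 fold change was 1.81 ± 0.24 at 4 h (limma adjusted p = 0.0356) and 0.29 ± 0.24 at 20 h (adjusted p = 0.675). Nr1i2 encodes PXR, a nuclear receptor for foreign chemicals. It was at 7.73, 6.78 and 7.15 in the 4 h controls and at 8.90, 7.67 and 9.03 in the treated arrays, so that the groups overlapped while each pair rose. Its log2 fold change was 1.31 ± 0.19 at 4 h (adjusted p = 0.0405) and 0.08 ± 0.19 at 20 h. Of 24 genes listed as induced by PXR and its relative CAR, 19 were tested and none was called, with medians of 0.06 at 4 h and -0.17 at 20 h. Cyp2b10, one of them, was at 1.97, -0.13 and 4.36 for ENU, DMN and DPN at 4 h.

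Rhob, a small GTPase that responds to DNA damage, rose by 1.15 ± 0.15 at 4 h (limma adjusted p = 0.0356), and its log2 fold change at 20 h was 0.52 ± 0.15 (adjusted p = 0.2). Nrbf2, an autophagy factor, rose by 1.22 ± 0.15 (adjusted p = 0.0356), beside 0.57 ± 0.15 at 20 h (adjusted p = 0.151). Both were higher in each pair at 20 h. Srsf6, a splicing factor, rose by 0.89 ± 0.11, Kpna2, an importin of nuclear transport, by 0.81 ± 0.10 and Rraga, a GTPase of amino acid sensing by mTORC1, by 0.70 ± 0.10 (adjusted p = 0.0356, 0.0356 and 0.0489). At 20 h these 3 were at 0.33, 0.03 and 0.00. Exosc1, a subunit of the RNA exosome, Card14, a scaffold of NF-kappaB signalling, and Dyrk3, a protein kinase, rose by 1.62, 1.39 and 1.29 at 4 h, with 2, 1 and 2 of 3 controls at the floor. Dyrk3 was also higher in each pair at 20 h, with all 3 controls at the floor and the treated arrays at 5.79, 5.89 and 5.95, and its log2 fold change of 0.85 ± 0.17 did not pass (limma adjusted p = 0.0763). In Exosc1 and Card14 the controls at 20 h stood higher (6.36 to 6.77 and 6.32 to 6.52) than those at 4 h (5.02 to 5.26 and 5.02 to 6.02). The single probe set called lower at 4 h belonged to H2-K1, a class I histocompatibility gene (-0.78 ± 0.11), and the brightest probe set of H2-K1 was at -0.06. Both probe sets are of a design that can bind related transcripts, so that these values are uncertain.

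Genes that fasting and glucocorticoids induce were higher at 4 h with ENU and DPN and less so with DMN. Of 21 listed, 18 were tested, 15 were higher at 4 h with a median of 0.66, and 9 at 20 h with a median of 0.00. For ENU, DMN and DPN the median log2 ratios at 4 h were 0.99, 0.11 and 1.11. By the brightest probe set no member was called at either time. Tsc22d3, the glucocorticoid-induced leucine zipper, was called at 4 h by its dimmer probe set. That probe set was at 8.17, 7.88 and 8.52 in the 4 h controls of ENU, DMN and DPN and at 9.89, 8.73 and 9.96 in the treated arrays, a log2 fold change of 1.34 ± 0.17 (limma adjusted p = 0.0356). Its brightest probe set gave 0.93 ± 0.24 (adjusted p = 0.147), and the value at 20 h was 0.12. Ppp1r3c, a glycogen-targeting subunit of protein phosphatase 1, was at 9.71, 9.88 and 9.72 in the 4 h controls and at 11.10, 10.72 and 12.17 in the treated arrays. Its log2 fold change of 1.56 ± 0.24 lay just over the threshold (adjusted p = 0.0547), and at 20 h it was -0.05. Sgk1, Lpin1 and Per1 had log2 fold changes of 1.21, 1.20 and 1.01 at 4 h, which did not pass (adjusted p = 0.0955, 0.111 and 0.103), and Pck1, the gluconeogenic enzyme, of 0.30.

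**Figure D2:**
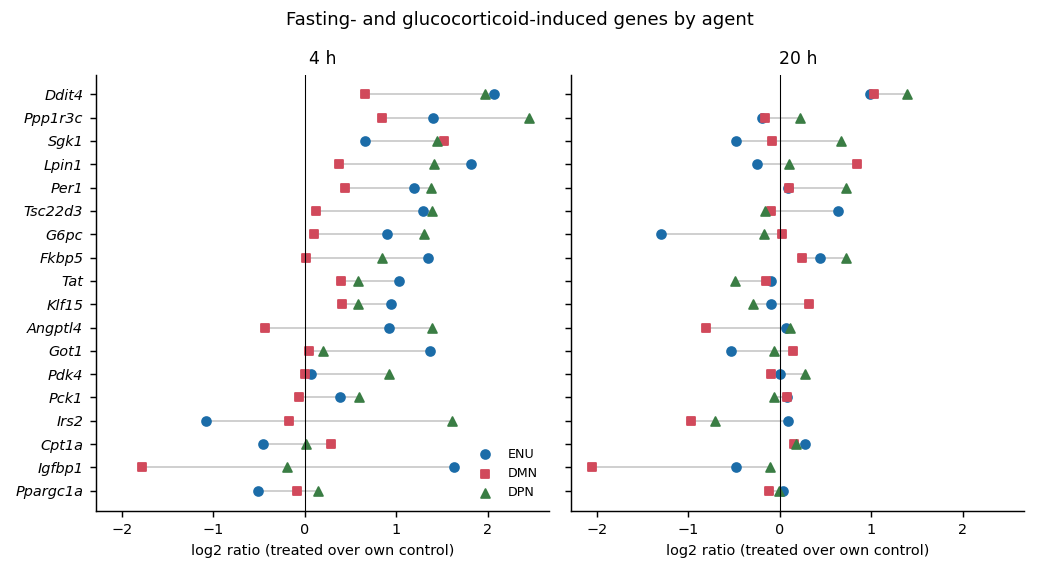
Log2 ratio of the treated array to its own control for the 18 tested genes of the fasting and glucocorticoid list, at 4 h and at 20 h, with 1 point per agent and a grey line over their range. At 4 h the points of ENU and DPN lie mostly to the right of those of DMN (medians 0.99, 1.11 and 0.11), and at 20 h the medians lie between -0.03 and 0.04.

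Immediate early genes were also uneven among the agents at 4 h. Of 20 listed, 19 were tested and none was called. Their median log2 ratios at 4 h were 0.33, 0.00 and 0.70 for ENU, DMN and DPN. Jun, a subunit of the AP-1 transcription factor, had log2 ratios of 0.82, 0.21 and 2.10, and Atf3, a stress-induced repressor, of 0.44, 0.48 and 2.46. Nucleolar and ribosome biogenesis genes were mostly higher at 4 h, 17 of 21 tested with a median of 0.21, and at 20 h, 15 of 21 with a median of 0.24, without a call. Nop56, a core protein of box C/D particles, had log2 ratios of 1.15, 1.55 and 1.56 at 4 h and a mean of 1.42 ± 0.28 that did not pass (limma adjusted p = 0.0887).

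Next to these stood the enzymes that activate nitrosamines. Of 18 genes listed for oxidation of nitrosamines and ethanol, 15 were tested and none was called at either time, with medians of 0.09 at 4 h and -0.06 at 20 h. Cyp2e1, the cytochrome P450 that oxidises DMN, had log2 ratios of 0.03, -0.09 and -0.09 for ENU, DMN and DPN at 4 h and -0.16, -0.20 and -0.27 at 20 h. Bile acid synthesis and transport genes were near their controls at 4 h (median -0.08 over 16 genes). At 20 h, 12 of the 16 were lower, with a median of -0.33 and none called. Abcb11, the bile salt export pump, was lower in each pair at 20 h (log2 ratios -0.91, -0.41 and -1.39) and did not pass (limma adjusted p = 0.0613). Interferon-stimulated genes (16 of 22 tested) had medians of -0.11 and -0.08, acute phase and chemokine genes (31 of 33) of -0.25 and -0.07, stress response genes of the endoplasmic reticulum (19 of 20) of 0.02 and 0.08, and clock genes (16 of 19) of 0.08 and -0.01, all without a call. Heat shock chaperones (16 of 20) had medians of 0.27 and 0.22, with Hspe1 called at 20 h.

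Several of the genes called lower at 20 h were of lipid synthesis. Of 20 tested genes of fatty acid and triglyceride synthesis, 19 were lower at 20 h, 5 of them called by the brightest probe set (Acss2, Elovl5, Me1, Pklr and Fads2), with a median of -0.61. Scd1 was called by a second probe set. Of 18 tested cholesterol genes of 24 listed, 16 were lower, 3 of them called (Fdps, Nsdhl and Sc5d), with a median of -0.66. Over all 10137 genes, 20 (0.197%) were called lower at 20 h by the brightest probe set. In the values as deposited, where the median of all probe sets was 0.30, these list medians were -0.31 and -0.36. At 4 h the medians were -0.06 and -0.10, and no member of either list was called. All 3 treated arrays lay below all 3 controls at 20 h for 13 of the 20 fatty acid genes and 6 of the 18 cholesterol genes, beside 668 of all 10137 genes (6.59%). The change was smaller for DMN. The median log2 ratios at 20 h were -0.81, -0.23 and -0.84 for fatty acid genes with ENU, DMN and DPN, and -0.79, -0.25 and -0.75 for cholesterol genes.

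Fdps, the farnesyl diphosphate synthase of the mevalonate pathway, was at 9.95, 10.51 and 9.86 in the 4 h controls of ENU, DMN and DPN and at 9.99, 10.45 and 9.53 in the treated arrays. At 20 h it was at 11.24, 11.12 and 10.56 in the controls and at 9.42, 10.47 and 9.16 in the treated arrays. The groups overlapped at 4 h and were separate at 20 h. Its mean log2 ratio was -0.12 ± 0.19 at 4 h (limma adjusted p = 0.831) and -1.29 ± 0.19 at 20 h (adjusted p = 0.0318). Nsdhl, which removes a methyl group of the sterol nucleus, fell by 1.10 ± 0.15 at 20 h (adjusted p = 0.0277), and Sc5d, which places the double bond of the sterol ring, fell by 0.89 ± 0.14 (adjusted p = 0.0461). Pmvk, Hmgcs1 and Dhcr7 of the same pathway had log2 fold changes of -1.28, -0.93 and -0.93 and did not pass (adjusted p = 0.0763, 0.061 and 0.0932).

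Acss2, which makes acetyl-CoA from acetate, changed by -0.10 ± 0.12 at 4 h, which did not pass. At 20 h the controls of ENU, DMN and DPN were at 10.64, 10.59 and 9.95 and the treated arrays at 9.20, 9.70 and 8.92, without overlap. Its log2 fold change was -1.12 ± 0.12 at 20 h (limma adjusted p = 0.00884). Me1, the malic enzyme that supplies NADPH, was at 11.55, 11.41 and 10.87 in the 20 h controls and at 10.01, 10.53 and 9.97 in the treated arrays, a change of -1.11 ± 0.15 (adjusted p = 0.0224). Elovl5, a fatty acid elongase, fell by 0.93 ± 0.12 (adjusted p = 0.0196), and Pklr, the liver pyruvate kinase, by 0.83 ± 0.13 (adjusted p = 0.0461). Fads2, a fatty acid desaturase, fell by 0.61 ± 0.10 (adjusted p = 0.0464).

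Scd1, the stearoyl-CoA desaturase, was called by a probe set at 10.59, 11.09 and 10.28 in the 20 h controls of ENU, DMN and DPN and at 8.43, 10.08 and 8.33 in the treated arrays, a log2 fold change of -1.70 ± 0.19 (limma adjusted p = 0.0104). Its brightest probe set gave -0.74 ± 0.14 and did not pass (adjusted p = 0.076). Thrsp, a lipogenic nuclear protein, and Fasn, the fatty acid synthase, had log2 ratios at 20 h of -2.30 and -1.67 for ENU, -0.03 and -0.05 for DMN and -2.03 and -1.16 for DPN, and neither passed (adjusted p = 0.136 and 0.159). Acacb, the acetyl-CoA carboxylase of the mitochondrial membrane, was at least 2-fold lower in all 3 agents at 20 h (-1.98 ± 0.36), with an adjusted p of 0.0632. The treated DPN array was at the floor for Acacb. At 4 h Acacb was lower in each pair (-1.27 ± 0.36) and Thrsp higher in each pair (0.81 ± 0.36). Neither passed (limma adjusted p = 0.169 and 0.334).

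The controls also stood higher at 20 h. The mean control level at 20 h was above that at 4 h for 17 of the 18 cholesterol genes (median 0.39 on the log2 scale) and for 18 of the 20 fatty acid genes (median 0.38), beside a median of 0.03 over all genes. The treated level at 20 h was below that at 4 h for 13 of 18 and 15 of 20, with medians of -0.18 and -0.05. The controls of different times are different pools, and this difference between them was not tested.

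**Figure D3:**
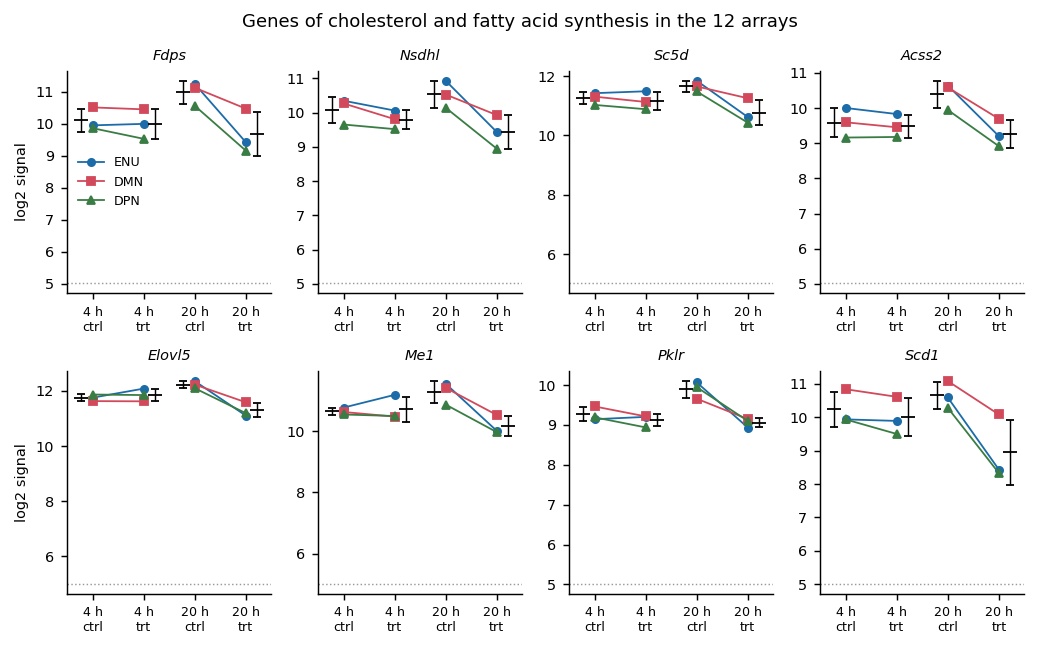
Log2 signal of 8 genes of cholesterol synthesis (Fdps, Nsdhl, Sc5d) and fatty acid synthesis (Acss2, Elovl5, Me1, Pklr, Scd1) in the 12 arrays: each line joins a saline control (ctrl) to the treated array (trt) of the same chemical and time, black bars are the mean ± SD of the 3 arrays of a group, and the dotted line is the floor at 5.02. Scd1 is shown by its called probe set and the other genes by their brightest one. At 4 h the log2 ratios run from -0.46 (Nsdhl with DMN) to 0.42 (Me1 with ENU). At 20 h the lines fall in all 3 agents, and Fdps fell by 1.29 on the log2 scale.

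**Figure D4:**
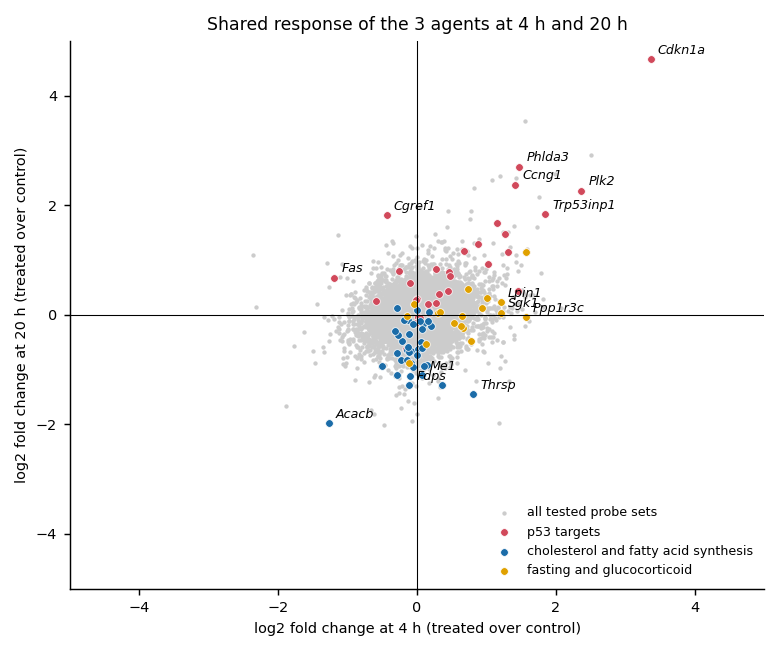
Mean log2 fold change of the 3 agents at 4 h (x axis) and at 20 h (y axis), treated over own control, for the 17019 tested probe sets (grey), with genes of 3 groups of lists in colour by their brightest probe set. p53 targets such as Cdkn1a (3.36 and 4.66) reach high on both axes, and fasting and glucocorticoid genes such as Ppp1r3c (1.56 and -0.05) lie to the right near the x axis. Lipid synthesis genes such as Fdps (-0.12 and -1.29) lie low on the y axis. Among them Acacb (-1.27 and -1.98) also lies to the left and Thrsp (0.81 and -1.45) to the right.

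Ephx1, the microsomal epoxide hydrolase, was called at 20 h and was at 11.30, 11.37 and 11.30 in the 20 h controls of ENU, DMN and DPN and at 12.25, 12.29 and 12.43 in the treated arrays, which lay close together and apart from the controls. At 4 h it was at 11.43, 11.39 and 11.30 in the controls and at 11.53, 11.50 and 11.46 in the treated arrays. The log2 fold change was 1.00 ± 0.08 at 20 h (limma adjusted p = 0.00441) and 0.12 ± 0.08 at 4 h (adjusted p = 0.518). Ugdh, which makes UDP-glucuronate for conjugation, rose by 0.77 ± 0.12 at 20 h (adjusted p = 0.0461). Gsr, the glutathione reductase, rose by 0.63 ± 0.10 by its second probe set (adjusted p = 0.0461), and its brightest one gave 0.48 ± 0.15 (adjusted p = 0.219). Nqo1, a quinone reductase and NRF2 target, had log2 ratios of 0.56, 0.74 and 1.24 and did not pass (adjusted p = 0.104). Of the 17 tested NRF2 antioxidant genes, 14 were higher at 4 h (median 0.15) with none called, and 12 at 20 h (median 0.29) with Ephx1 and Ugdh called higher by the brightest probe set and 1 gene lower. The lower one was Me1, which is also a lipogenic gene. Over all genes, 55.5% were higher at 4 h and 53.1% at 20 h, where 0.286% were called higher and 0.197% lower. Outside that list, Dcxr, a carbonyl reductase, and Gstp3, a glutathione transferase, rose by 0.77 ± 0.08 and 0.86 ± 0.14 at 20 h (limma adjusted p = 0.00962 and 0.0461).

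Other genes called higher at 20 h were of varied function. Endog, the mitochondrial endonuclease G, was called by both of its probe sets (0.77 and 0.97), and so was Ccl9, a chemokine (0.60 and 0.93). Odc1, the first enzyme of polyamine synthesis, rose by 0.62 ± 0.10 (limma adjusted p = 0.0461). Mbl2, a mannose-binding lectin of innate immunity, rose by 1.01 ± 0.10 (limma adjusted p = 0.00672), from 11.56 to 11.93 in the controls to 12.67 to 12.86 in the treated arrays. Agmat, an agmatinase, rose by 0.87 ± 0.09 (adjusted p = 0.00962), and Bscl2, the lipid droplet protein seipin, by 0.83 ± 0.10 (adjusted p = 0.0132). Tubb4b, a beta-tubulin, rose by 1.62 ± 0.26 (adjusted p = 0.0461), and at 4 h it was at 1.40 ± 0.26 (adjusted p = 0.0834). Hspe1, a mitochondrial chaperonin, rose by 0.65 ± 0.08 (adjusted p = 0.0161). Aaas, a nuclear pore protein, rose by 2.49 ± 0.30 with 2 of 3 controls at the floor, and the predicted gene Gm6958 by 2.54 ± 0.41 with all 3 at the floor, so that its rise is at least 5.8-fold.

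Other genes called lower at 20 h were also of varied function. The largest fall was in Lsm7, a subunit of the LSM ring that binds RNA (-2.01 ± 0.32, limma adjusted p = 0.0461), followed by Ighm, described below. Lsm7 was at 6.47 to 7.15 in the treated arrays at 20 h, but the DMN control at 4 h was also low (6.81, against 8.84 for ENU and 8.47 for DPN). Nr5a1, a nuclear receptor, fell by 1.33 ± 0.21 (adjusted p = 0.0461). Its controls stood higher at 20 h (7.10 to 7.54) than at 4 h (5.02 to 6.46). Hsd17b2, an oxidase of oestradiol and testosterone, fell by 0.82 ± 0.09 (adjusted p = 0.00884). A dim probe set of Ahnak, a scaffold protein, fell by 1.23 ± 0.18, while its brightest one was at 0.94 ± 0.27 and was not called, so that its direction is unsettled. Hamp2, of the hepcidin family of iron regulators, was at 11.56, 11.24 and 11.42 in the 20 h controls of ENU, DMN and DPN and at 10.39, 10.35 and 9.75 in the treated arrays, a log2 fold change of -1.25 ± 0.15 (limma adjusted p = 0.0132). Its probe set may share sequence with its close relative Hamp, so that the value is uncertain. Dio1, the liver deiodinase that activates thyroid hormone, fell by 1.16 ± 0.18 (adjusted p = 0.0424). Igfbp2, a binding protein of insulin-like growth factors, fell by 0.52 ± 0.09 (adjusted p = 0.0464). It was the only call among the 15 tested genes of the IGF and growth hormone list, of which 14 were lower at 20 h with a median of -0.35. The share of all genes called lower at 20 h was 0.197%. Prodh, the proline dehydrogenase, fell by 1.11 ± 0.17 (adjusted p = 0.0418), and Scarb1, the receptor that takes up HDL cholesterol, by 0.63 ± 0.09 (adjusted p = 0.0379).

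Ighm, the immunoglobulin mu chain, was at 8.07, 7.73 and 7.87 in the 20 h controls and at 6.71, 5.02 and 6.12 in the treated arrays of ENU, DMN and DPN, a log2 fold change of -1.93 ± 0.25 (limma adjusted p = 0.017). The treated DMN array was at the floor. H2-Aa, a class II histocompatibility gene, fell by 0.94 ± 0.15 (adjusted p = 0.0461), and Reln, a matrix protein of hepatic stellate cells, by 1.15 ± 0.19 (adjusted p = 0.0496). In these bulk livers, fewer cells of a type and less RNA per cell cannot be told apart. Reln was the only call at 20 h among all the cell type markers listed. The summed signal of the 14 tested Kupffer cell and macrophage markers (of 15) was 6020 to 6370 in the 20 h controls and 4960 to 5580 in the treated arrays, and that of the 15 sinusoidal endothelial markers 2430 to 2610 and 1970 to 2280. The sum of the 9 tested stellate cell markers (of 13), Reln among them, was 2220 to 2590 and 1930 to 2080. That of the 9 tested hepatocyte markers (of 12) was 91800 to 100000 and 81300 to 85700, so that the sums of scaled signal were lower in every treated array for parenchymal and other cells alike. Before scaling the treated arrays at 20 h were the brighter ones (medians 82.7 to 89.9 against 67.5 to 71.8). The sums are not given for the values as deposited, so that a fall apart from the scaling is not shown. At 4 h the sums of these 4 lists overlapped between the groups. The 9 tested lymphocyte markers (of 15; 4 others did not pass the filter on low signals) summed to 527 to 576 in the 20 h controls and 497 to 545 in the treated arrays. The part of these shifts in the results was not tested. Ctrb1, a pancreatic chymotrypsinogen, was lower in the treated array in 6 of 6 pairs (log2 fold changes -1.88 ± 0.33 and -1.67 ± 0.33) and did not pass (adjusted p = 0.0736 and 0.076). The summed signal of the 5 tested acinar markers (of 10) was 1880 to 2040 in the 20 h controls and 1100 to 1710 in the treated arrays, and at 4 h it was 1720 to 1850 and 1590 to 1770.

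The difference between the times was tested directly and called no probe set (0 of 17019, 0.0%, with a lowest adjusted p of 0.125 in limma), while 1539 had an unadjusted p under 0.05. A change called at one time and not at the other is therefore not shown to differ between them. The genes with the smallest p were Ephx1 and Bscl2, which were higher at 20 h relative to 4 h, and Phospho2, Trib1 and Glrx, which were lower, all with an adjusted p of 0.125. Trib1, a pseudokinase that acts in lipid metabolism, was at 5.99, 5.75 and 6.46 in the 4 h controls of ENU, DMN and DPN and at 7.27, 6.92 and 7.64 in the treated arrays. At 20 h its controls were at 6.31, 5.43 and 6.16 and the treated arrays at 5.60, 5.02 and 5.02, with 2 of the 3 at the floor. Its change went from 1.21 ± 0.19 to -0.75 ± 0.19, a difference of -1.96 ± 0.27. Glrx, a glutaredoxin, went from 0.55 ± 0.10 to -0.46 ± 0.10, and Phospho2, a phosphatase, from 1.01 ± 0.13 to -0.30 ± 0.13. Bscl2 went from -0.19 ± 0.10 to 0.83 ± 0.10. For the lipid genes the difference was -1.02 ± 0.17 in Acss2, -1.18 ± 0.21 in Me1 and -1.17 ± 0.26 in Fdps (adjusted p = 0.166, 0.21 and 0.291), and for Cdkn1a it was 1.30 ± 0.63 (adjusted p = 0.582). Of the 46 probe sets called higher at 20 h, 42 were above 0 at 4 h with a median of 0.41. Of the 24 called lower, 15 were below 0 at 4 h with a median of -0.05. Of the 32 called higher at 4 h, 22 were above 0 at 20 h with a median of 0.25. Because these probe sets were chosen by one time, the values at the other are a description.

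The called probe sets had the same sign in the 3 agents, and the size of the change varied among them. Among the 32 probe sets called higher at 4 h, DMN had the smallest log2 ratio in 22 and DPN the largest in 20, with median ratios of 1.17, 0.90 and 1.43 (ENU, DMN, DPN). Among the 46 called higher at 20 h, ENU had the smallest ratio in 27 and DPN the largest in 30, with median ratios of 0.89, 0.90 and 1.10. Among the 24 called lower at 20 h, DMN had the smallest change in 16 and ENU the largest in 12. The median log2 ratio of the p53 arrest and feedback list stood at 0.61, 0.37 and 0.79 (ENU, DMN, DPN) at 4 h. At 20 h it stood at 0.64, 0.91 and 0.91, so that the order of ENU and DMN turned. These ratios also depend on the controls. For Cdkn1a at 4 h the controls of ENU, DMN and DPN were at 5.95, 7.75 and 6.34, and the treated arrays at 9.64, 9.77 and 10.72. Ccng1 also had its highest 4 h control with DMN (8.67), but Trp53inp1 had it with DPN (9.08). Across all tested probe sets the log2 ratios of 2 agents were weakly related, with a Pearson r of 0.14 to 0.29 at 4 h and 0.21 to 0.22 at 20 h. Between the times, r was 0.01, 0.09 and 0.23 for ENU, DMN and DPN. These correlations run over 17019 probe sets that share arrays, and are given as a description.

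**Figure D5:**
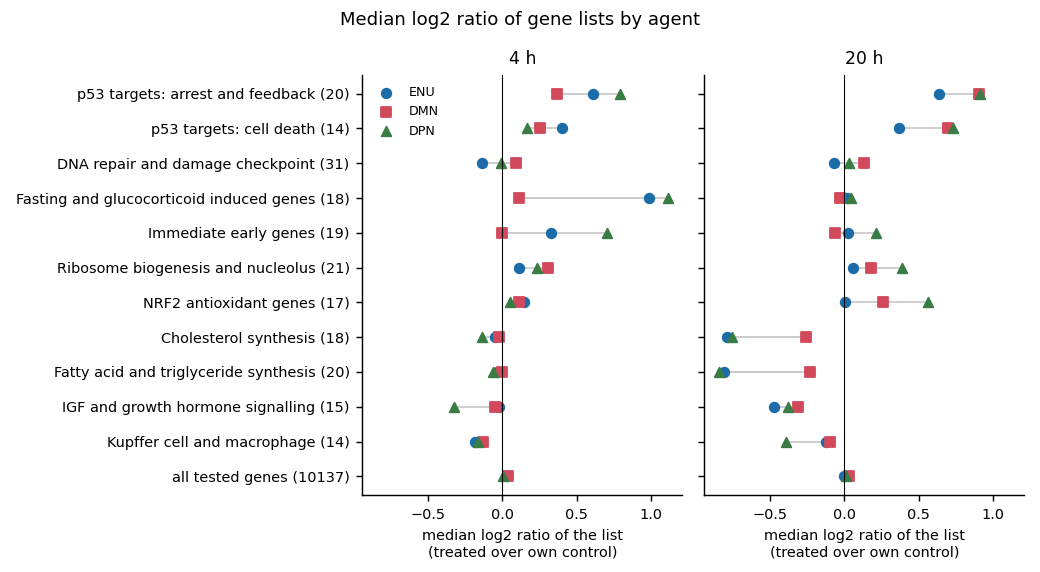
Median log2 ratio (treated over own control) of the tested members of 11 gene lists and of all tested genes, at 4 h and at 20 h, with 1 point per agent and the number of genes in brackets. The p53 lists lie above 0 for every agent at both times, the lipid synthesis lists lie below 0 at 20 h with DMN nearest to 0 (-0.25 and -0.23), and the fasting and glucocorticoid list is high at 4 h for ENU and DPN.

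From the marker genes that the study names in mouse liver, a list of 43 was drawn up, of which 37 were tested. It does not hold every gene named there. The study chose its markers with these samples among others, so that their direction is not independent evidence. At 4 h, 31 of them were higher with a median of 0.58, and 4 were called by the brightest probe set (Aen, Ccng1, Cdkn1a and Rcan1). At 20 h, 27 were higher with a median of 0.19, and 7 were called (Aen, Ccng1, Cdkn1a, Ephx1, Mdm2, Phlda3 and Tubb4b). Over all genes, 0.197% were called higher at 4 h and 0.286% at 20 h. Hspb1, a small heat shock protein, had log2 ratios at 20 h of 1.20, 0.25 and 1.88 and did not pass. Glul, the glutamine synthetase of hepatocytes around the central vein, and Fabp5, a fatty acid-binding protein, were lower in each pair at 20 h. Their log2 fold changes of -1.45 ± 0.29 and -1.58 ± 0.32 did not pass (limma adjusted p = 0.0763 and 0.0795). Lrp1, an endocytic receptor, was lower in each pair at 4 h (-1.09 ± 0.21, adjusted p = 0.0834) and at -0.16 at 20 h. Mbd1, a protein that binds methylated DNA, was at 1.14 ± 0.20 at 4 h (adjusted p = 0.0759) and at 0.08 at 20 h.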

How the data were processed

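Liver RNA of 5 mice was pooled for each Affymetrix array. The authors deposited linear probe-set intensity for 22690 probe sets and 52 arrays; their software and scaling were not given in the sources read. The 64 control probe sets were removed. Each array was scaled to the mean of all array medians. The floor was the 30th percentile (32.5), and log2 was then taken. The 17019 probe sets with at least 3 of the 12 arrays above it were tested with limma 3.58.1 in R 4.3.3, with the 6 treated and control pairs as blocks, 1 treatment coefficient per time, a variance trend and 4 residual degrees of freedom. The labels pair the arrays by chemical and time; deviations of paired arrays correlated at 0.06 to 0.26. Nothing says that the pools of a group were handled separately, so that p-values measure the spread between these arrays, whose number limits the precision. The fit was tested on simulated data.

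Of 21084 annotated probe sets, 20393 had 1 symbol, and 20364 of these matched the RefSeq gene table. A gene was represented by its brightest tested probe set, and a called second one is given beside it. Genes named by rule were the 10 called genes with the largest change each way at each time, the 5 smallest p where fewer than 5 were called, called members of 31 lists and their 4 largest changes, of which a part is given, and the study's mouse liver markers. The rest were named after their values were seen. The members and lists were chosen with earlier results of these data known. Upstream sequences came from RefSeq (GRCm38.p6). Python 3.11.15 and matplotlib 3.10.9 drew the plots.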

Additional observations from a re-analysis of the deposited data

How the results depend on the processing

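Each call rests on 3 pairs, and leaving out 1 agent leaves 2. Without 1 agent the count of called probe sets was 0 at 4 h, 0 to 4 at 20 h and 0 to 2 for the difference, beside 33, 70 and 0. The count at least 2-fold in every remaining agent was 50 to 160 at 4 h and 57 to 99 at 20 h, beside 20 and 26. The 4 h count was 0 with quantile normalization, 56 as deposited, 3 with the floor at the 15th percentile, 73 among probe sets above the floor in all 12 arrays, 61 with the alkylating arrays of all 4 times and 147 with all 52 arrays. The 20 h count was 636 as deposited, 31 with the lower floor, 123 above the floor in all 12 arrays and 112 with all 4 times. With no filter, no variance trend or each time fitted alone it was 0 at both times. Without the replicate block, the pairing set aside, it was 20 at 4 h and 41 at 20 h, of which 14 and 35 were shared. The difference called 0 under the other alternatives. The 2-fold count was 35 and 54 as deposited, 81 and 80 with the lower floor, and 9 and 11 above the floor in all 12 arrays.

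No called value of a named gene changed its direction in the 1244 values computed for them under the alternatives. Only a change of the scaling or the floor could have turned one. The settings of the filter, the block, the variance and the added arrays leave the mean ratio as it is. Every called probe set had the same sign in the 3 agents, so that leaving out 1 agent could not turn it either. The 1 reversal was Lcn2, an acute phase gene that was not called: its log2 fold change at 20 h was -0.28 to 3.32 without 1 agent, lowest without ENU. The causes were not tested. As deposited, the 20 h medians of the p53 arrest list, the cholesterol list and the fatty acid list were 1.04, -0.36 and -0.31.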

Other observations

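The genes called at both times were also read in the same agents' arrays at 14 and 28 days, scaled in the same way and without a test. Cdkn1a was above its own control in 3 of 3 pairs at each of these times, with log2 ratios of 0.81, 0.50 and 3.84 for ENU, DMN and DPN at 14 days and 2.10, 1.66 and 2.87 at 28 days. Aen was also higher in 3 of 3 pairs, by 0.51 ± 0.25 (SD, n = 3) at 14 days and 0.50 ± 0.31 at 28 days. Ccng1 was higher with DPN (1.47 and 1.22) and near its control with ENU and DMN at 28 days (0.01 and 0.06). Mdm2, Nfe2l2 and Trp53inp1 had ratios of both signs at 28 days. Tpm1, by the probe set called at both times, was at 0.00, 0.00 and 0.38 for ENU, DMN and DPN at 14 days and at 0.37, -1.26 and -0.95 at 28 days.

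Cyp4a14, a fatty acid hydroxylase induced by PPAR-alpha, was at log2 ratios of 4.72, -0.10 and 5.97 for ENU, DMN and DPN at 20 h. Its mean of 3.53 ± 0.96 (SE) did not pass (limma adjusted p = 0.161). Cxcl1, a neutrophil chemokine, had ratios of -0.77, -1.77 and -4.43 at 4 h, and Lcn2 of 0.21, -2.28 and -5.03. The controls differed more among the agents than the treated arrays did. Cxcl1 was at 8.34, 8.93 and 11.24 in the 4 h controls of ENU, DMN and DPN and at 7.58, 7.16 and 6.81 in the treated arrays. Lcn2 was at 5.82, 9.34 and 11.91 in the controls and at 6.03, 7.06 and 6.89 in the treated arrays.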
